A study of Macaca fascicularis and Mus musculus with 42 samples.

Results

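Germ cell-like cells of the cynomolgus monkey (Macaca fascicularis) were compared between the last days of their induction, days 8 and 10, and day 6. The study read 42 bulk RNA libraries, monkey and mouse, of embryonic stem cells and of the primordial germ cell-like cells (PGCLC) made from them, and 6 of these 42 are compared here. Days 8 and 10 gave 2 libraries each, 4 in all, and day 6 gave 2. They were chosen by their labels (GK15 medium, BTAG positive gate, day). Another library labelled day 6, from the line 656BTAG63, was left out because it held 0.50 RPM of PRDM1, against 118 to 181 RPM in the 6 libraries compared.

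All 6 libraries are labelled as 1 stem cell line, 656BTAG42, which carries the transgenes Blimp1-tdTomato and TFAP2C-EGFP. Blimp1 is another name of PRDM1. The cells grew as floating aggregates in GMEM with 15% KSR, a serum replacement, in the presence of the growth factors BMP4 at 200 ng/ml, SCF at 100 ng/ml and EGF at 50 ng/ml, the cytokine LIF at 1000 U/ml, and the kinase inhibitor Y27632 at 10 µM until the day of harvest. The labels call this condition GK15_BSEL. BTAG positive is read here as positive for both reporters, so the levels of PRDM1 and TFAP2C are bound to the sort. Libraries are named by day and number, and library 2 of day 6 is the one left out. The title numbers put day 6 library 1 in the series MS134, and day 6 library 3, day 8 library 1 and day 10 library 1 in a first run of MS162 numbers. The libraries numbered 2 of days 8 and 10 belong to a later run of MS162 numbers. A single labelled line, and labels that do not state separate cultures, mean that p-values measure a spread between samples, which may be technical. That spread is pooled over the 24 libraries fitted, in 13 groups, which include stem cells and cells of the study's other medium.

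Primordial germ cells are the founders of eggs and sperm. In primates their fate is set up by SOX17, PRDM1 and TFAP2C under BMP signalling, while POU5F1 and NANOG stay on and SOX2 is shut off. In the embryo these cells go on dividing as they migrate, lose DNA methylation, and switch on DAZL and DDX4 only later, in the gonad.

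Levels are RPM, reads of a gene per M reads of the library, from the 3′ ends of transcripts. The 6 libraries held 1.08 to 4.56 M reads, so 1 read was worth 0.219 to 0.929 RPM, and 13143 to 15325 entries of the table had a read. Their pairwise correlations over the 10701 genes tested lay between 0.9055 and 0.963, and the 3 lowest were pairs of day 10 library 2 with both day 6 libraries and with day 8 library 1. Of 33 libraries from reporter lines, 6 had a PRDM1 level against their gate, and 9 would change group if the columns were read in alphabetical order of their names. Those 9 hold all of the 6, and the remaining 24 made up the fit. On the alphabetical reading the column of day 6 library 1 would be the library left out, which has the same medium, gate and day but is labelled as the line 656BTAG63, so the line of that day 6 library is not certain. The other 5 columns would stay as they are.

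Days 8 and 10 together differed from day 6 in 25 of 10701 genes tested (0.234%), with 9 genes higher (0.0841%) and 16 lower (0.15%). The genes that rose include NDRG1 and VEGFA, both known targets of the hypoxia response, and TCL1B, a cofactor of the kinase AKT. Among those that fell were the neuropeptide gene NMU, the histone H3K27 methyltransferase gene EZH2, and KIF23, ASPM, OIP5, SMC4 and TK1, whose products act in cell division or in making DNA precursors. A gene was called when limma's adjusted p (Benjamini-Hochberg over all genes) was under 0.05 and the log2 difference at least 1. The contrast weighs both days alike. In all 25 genes the 4 late libraries lay on one side of both day 6 libraries, which was so for 7.4% of all genes upward and 16.8% downward. The genes were called from these same libraries, so this separation is no added support. The counts rest on single libraries: they were 1 higher and 0 lower without day 6 library 1, 0 and 0 without day 6 library 3 and again without day 8 library 2, 14 and 34 without day 8 library 1, 8 and 33 without day 10 library 1, and 4 and 5 without day 10 library 2. Within the MS162 libraries, where day 6 has 1 library, no gene was called, and all 25 kept their direction, with log2 differences of 0.90 to 3.95 for the 9 and -2.79 to -0.81 for the 16. The 6 compared libraries hold 1 day 6 library outside MS162, so day and title series are partly bound together, and with the series as a covariate 0 were called. The median gene lay at -0.12 on the log2 scale, and with median-of-ratios scaling at -0.003. That scaling called 7 higher and 3 lower (70% higher, against 36%), and quantile normalization called 9 and 6 (60%). With all 33 libraries fitted as labelled, and the library left out counted in day 6, 52 were higher and 142 lower.

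**Figure D1:**
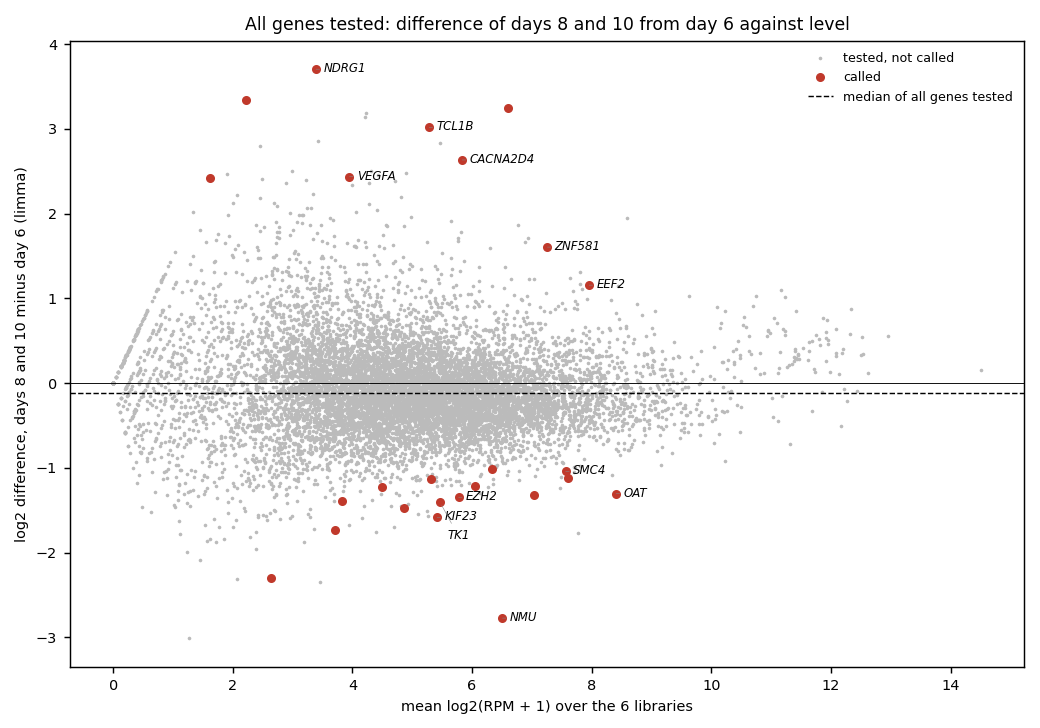
Log2 difference (days 8 and 10 minus day 6, vertical axis) of the 10701 genes tested against their mean log2(RPM + 1) over the 6 libraries (horizontal axis). The 25 called genes are red, 9 above and 16 below, 12 of them with their names, and the dashed line is the median of all genes at -0.12.

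NDRG1 (gene ID 102125434), a stress-induced gene named for its repression by MYC, had the largest difference among the called genes. It had 6.5 and 27.0 RPM on day 8 and 41.5 and 40.7 RPM on day 10, against 1.25 and 0.60 RPM on day 6. The 4 late libraries lay above both day 6 libraries, with day 8 library 1 the lowest of them. The log2 difference was 3.70 ± 0.555 (SE; adjusted p = 0.00753, limma). VEGFA (102140241), the endothelial growth factor gene, had 17.6 and 20.6 RPM on day 8 and 32.5 and 39.2 RPM on day 10, against 3.33 and 4.82 RPM on day 6. Its days stood apart from each other in steps, and its log2 difference was 2.435 ± 0.455 (adjusted p = 0.0383). For both genes day 6 was also the low point of the course: the day 2 and day 4 libraries of the same medium and gate, 1 usable each, had 7.90 and 8.17 RPM of NDRG1 and 13.5 and 18.5 RPM of VEGFA.

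These 2 genes were the only called members of the list of hypoxia targets, of which 18 of 21 in the table were tested, beside 0.0841% of all genes called higher. In 6 of the 18 (33.3%) all late libraries lay above both day 6 libraries, beside 7.4% of all genes, and the list's median log2 difference was 0.56. Of the 18, 15 had a positive and 3 a negative difference, and 5 had an unadjusted limma p under 0.05. Of all 10701 genes tested, 4147 had a positive difference, 6479 a negative one, and 1536 an unadjusted limma p under 0.05. SLC2A1, the main glucose transporter gene, had 218 and 276 RPM on day 8 and 296 and 270.0 RPM on day 10, against 109 and 166 RPM on day 6, and did not pass (adjusted p = 0.282). BNIP3, which removes mitochondria, had a log2 difference of 0.36 (adjusted p = 0.841), and for ADM, the vasodilator adrenomedullin, it was -0.20 (adjusted p = 0.954), with 406 RPM in day 10 library 2 and 71.97 to 191 RPM in the other 5. Of the glycolysis list limma and edgeR called none of 22, where limma called 0.0841% of all genes higher. DESeq2 called 1 higher, beside 51 higher of all 10701 genes. Within the list, 9 members had an unadjusted limma p under 0.05, 16 had a positive difference, and the median was 0.29. Its largest difference was PFKFB3, an activator of glycolytic flux, with 30.6 and 62.3 RPM on day 8 and 60.2 and 38.5 RPM on day 10, against 6.66 and 12.7 RPM on day 6 (log2 2.2, adjusted p = 0.0881). Within MS162 the glycolysis median was 0.004 with 11 members up and 11 down, and the hypoxia median 0.30. The list of fatty acid oxidation genes showed no call by limma among 14 members tested, a median of 0.00, and 7 members in each direction.

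TCL1B (102119529) had 18.6 and 86.5 RPM on day 8 and 69.9 and 307 RPM on day 10, against 11.2 and 6.63 RPM on day 6. The groups did not overlap, and library 2 was above library 1 on both late days. Its log2 difference was 3.02 ± 0.59 (adjusted p = 0.0423). The remaining 18 members tested of the list of AKT signalling and TCL1 relatives were not called, where 0.234% of all genes were. AKT1 had a log2 difference of -0.54 (limma adjusted p = 0.257). CACNA2D4, an auxiliary subunit gene of voltage-gated calcium channels, had 55.7 and 106 RPM on day 8 and 175 and 112 RPM on day 10, against 15.0 and 16.9 RPM on day 6 (log2 2.63 ± 0.41, adjusted p = 0.00975).

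The kinase gene STK32A had 5.57 and 10.8 RPM on day 8 and 12.5 and 9.05 RPM on day 10, and no read in either day 6 library. These levels stand for 6, 49, 18 and 12 reads. Against a floor of 3 reads over both day 6 libraries (0.739 RPM) it was at least 12.8-fold higher on the late days (adjusted p = 0.00753). ADORA2A, an adenosine receptor gene, was likewise without reads on day 6 and had 1.86 and 4.17 RPM on day 8 and 5.54 and 7.54 RPM on day 10, from 2, 19, 8 and 10 reads, at least 6.47-fold higher (adjusted p = 0.0495). ZNF581, a zinc finger gene, averaged 246 ± 131 RPM on days 8 and 10 and 72.7 ± 13.2 RPM on day 6 (log2 1.6 ± 0.31, adjusted p = 0.0403). EEF2, the elongation factor that moves the ribosome along the message, had 276 and 351 RPM on day 8 and 325 and 349 RPM on day 10, against 122 and 172 RPM on day 6 (log2 1.155 ± 0.24, adjusted p = 0.0495).

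**Figure D2:**
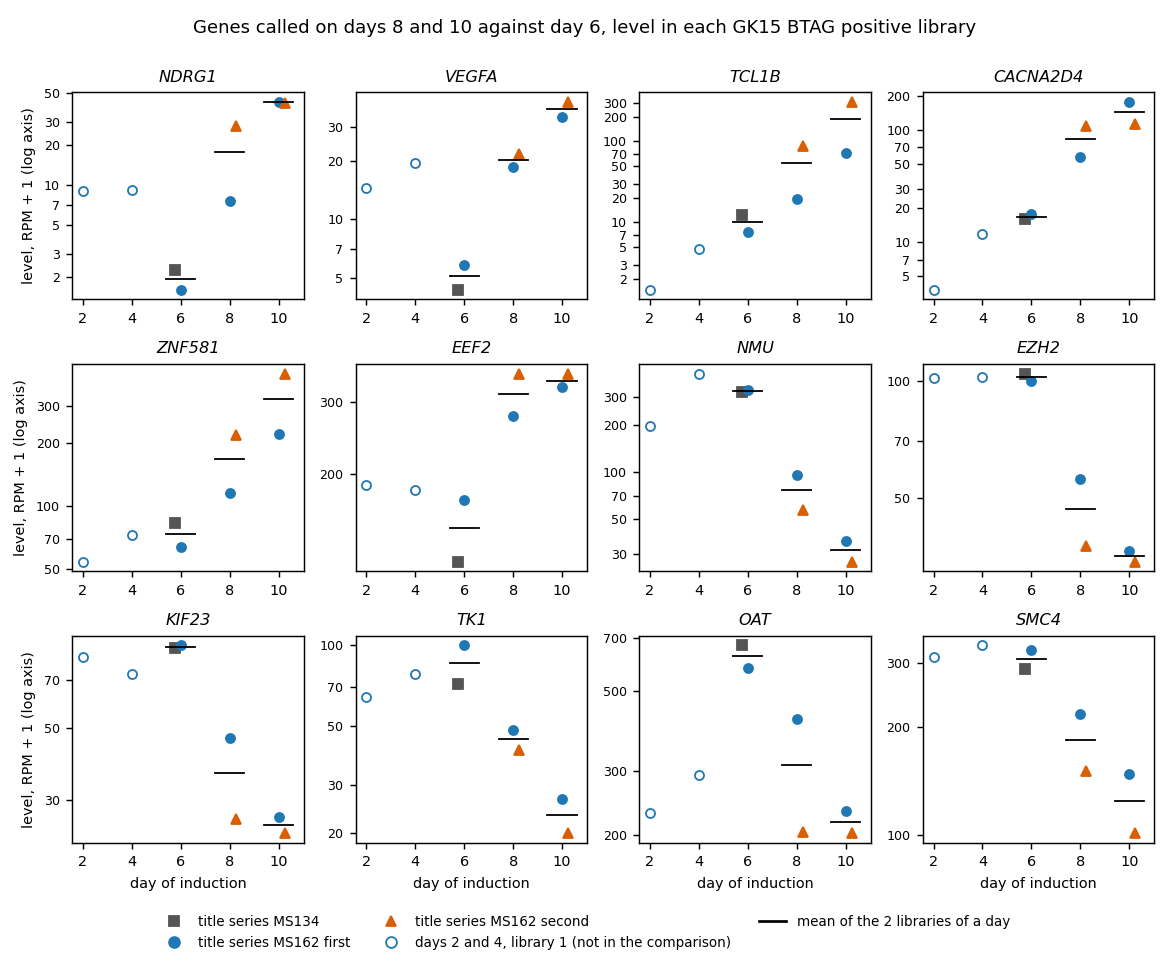
Level of 12 of the 25 called genes (RPM + 1, logarithmic vertical axis) by day of induction in GK15 BTAG positive libraries, with symbols for the title series, open circles for the libraries of days 2 and 4 and bars for the mean of each later day. NDRG1 and VEGFA have their lowest mean on day 6, while NMU and EZH2 are lower in every library of days 8 and 10 than in the earlier libraries shown.

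NMU (107129668), which encodes the peptide neuromedin U, had the largest decrease. It had 94.7 and 56.4 RPM on day 8 and 35.3 and 25.6 RPM on day 10, against 324 and 330.3 RPM on day 6. The day 6 libraries were close together and every late library was far below them. The log2 difference was -2.77 ± 0.385 (adjusted p = 0.00753, limma). Earlier in the course it had 196 RPM on day 2 and 423 RPM on day 4, and the embryonic stem cells averaged 9.4 RPM, so the gene was high from day 2 to day 6.

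EZH2 (102146280) had 54.8 and 36.4 RPM on day 8 and 35.3 and 33.2 RPM on day 10, against 103 and 98.9 RPM on day 6. The averages were 39.9 ± 10.0 RPM on days 8 and 10 and 101.1 ± 3.12 RPM on day 6 (SD, n = 4 and 2), and the log2 difference was -1.35 ± 0.22 (adjusted p = 0.0117). Day 2 had 100.4 RPM, and day 4 was close to it. The 19 histone methylation genes tested had a median of -0.11, beside -0.12 for all genes. EZH2 was the 1 called of them, beside 0.15% of all genes called lower. Its partners in the Polycomb repressive complex did not pass: SUZ12 had 78.9 and 69.3 RPM on day 8 and 90.7 and 80.7 RPM on day 10, against 113 and 110.3 RPM on day 6 (log2 -0.485, adjusted p = 0.244), and EED had a log2 difference of 0.06. EZH1, the relative of EZH2, had 0.10 (adjusted p = 0.959).

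Other called decreases came from genes of mixed roles. OAT, the ornithine aminotransferase, had 417 and 203 RPM on day 8 and 231 and 201 RPM on day 10, against 666 and 577 RPM on day 6 (log2 -1.305 ± 0.245, adjusted p = 0.0383). Day 8 library 1 stood between day 6 and the other late libraries. MYH10, a non-muscle myosin heavy chain, had the same order, with 173 and 77.5 RPM on day 8 and 87.9 and 72.4 RPM on day 10, against 278 and 211 RPM on day 6 (-1.325 ± 0.27, adjusted p = 0.0495). PAPSS2, which makes the sulfate donor of the cell, had 33.4 and 34.9 RPM on day 8 and 9.69 and 12.8 RPM on day 10, against 55.8 and 57.3 RPM on day 6 (-1.48 ± 0.29, adjusted p = 0.0441). The 3 days of PAPSS2 stood apart. ACBD6, an acyl-CoA binding protein gene, had 8.36 and 5.71 RPM on day 8 and 9.0 and 16.6 RPM on day 10, against 30.0 and 22.3 RPM on day 6, so that day 8 was the lower of the late days (-1.39 ± 0.29, adjusted p = 0.0495). SYT1, a calcium sensor of vesicle release, averaged 8.06 ± 2.70 RPM on days 8 and 10 and 31.0 ± 19.1 RPM on day 6, and EDDM3A, an epididymal protein gene in humans, 3.93 ± 3.67 RPM on days 8 and 10 and 17.1 ± 0.58 RPM on day 6. The last 3 called genes, SH3BGRL, AKIP1 and BCAP29, had log2 differences of -1.12, -1.23 and -1.01.

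Among called genes with a role in division, KIF23, a kinesin of the cytokinetic bridge, had 45.5 and 25.2 RPM on day 8 and 25.6 and 22.6 RPM on day 10, against 87.03 and 88.6 RPM on day 6 (log2 -1.59 ± 0.26, adjusted p = 0.0111). TK1, the S phase thymidine kinase, had 47.4 and 39.7 RPM on day 8 and 25.6 and 18.9 RPM on day 10, against 70.8 and 98.9 RPM on day 6 (log2 -1.41 ± 0.28, adjusted p = 0.0423). TK1 was lowest in both day 10 libraries, while for KIF23 day 8 library 2 lay among them. OIP5, which helps to load the centromere histone, had a log2 difference of -1.22, ASPM, a spindle pole gene, -1.13, and SMC4, a condensin subunit, -1.04 (adjusted p = 0.0423, 0.0403 and 0.0421). SMC4 was the most abundant of them, at 153 ± 47.7 RPM on days 8 and 10 and 306 ± 26.0 RPM on day 6.

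In the list of mitosis genes limma and edgeR called no member of 24 for both late days together. Limma called 0.15% of all genes lower. DESeq2 called 1 member lower, beside 25 lower of all 10701 genes. Of the 24, 21 had an unadjusted limma p under 0.05, beside 1536 of all 10701 genes. All 24 had a negative difference (median -0.94), and in 19 of 24 (79.2%) every late library was below both day 6 libraries, beside 16.8% of all genes. The summed level of the list was 2009 and 1400 RPM on day 8 and 1231 and 925 RPM on day 10, against 2333 and 2695 RPM on day 6. The median difference from day 6 was -0.61 on day 8 and -1.255 on day 10, both against the same day 6 libraries. On day 10, 11 of 24 passed as lower, where 1.01% of all genes did, and 22 had both libraries below both day 6 libraries, beside 31.1% of all genes. The 4 largest were KIF20A, a cytokinesis kinesin (log2 -2.03, adjusted p = 0.0457), BUB1, a spindle checkpoint kinase (-1.665, adjusted p = 0.0368), AURKA, the centrosome kinase (-1.64, adjusted p = 0.0423), and TTK, another checkpoint kinase (-1.63, adjusted p = 0.0315). KIF20A had 20.1 and 7.54 RPM on day 10, against 47.9 and 60.3 RPM on day 6, and BUB1 had 48.4 and 27.9 RPM, against 132 and 107 RPM. TOP2A, the most abundant member by day 6 mean, had 126 and 75.4 RPM on day 10, against 299 and 297 RPM on day 6 (log2 -1.60, adjusted p = 0.0186). The members with the weakest difference on day 10 were TPX2, a spindle assembly factor (-0.08, adjusted p = 0.984), and PTTG1, the securin gene (-0.49, adjusted p = 0.384). The 11 calls became 0 without either day 6 library, 0 without day 10 library 2, 0 within MS162, 3 with median-of-ratios scaling, 5 with quantile normalization, 1 with the title series as a covariate, 1 by edgeR and 18 with all 33 libraries as labelled. All 24 differences of both late days stayed negative within MS162, with a median of -1.06. Over day 6 library 3, day 8 library 1 and day 10 library 1, the first MS162 run, 22 of 24 were lower on each later day. The same order held for 16 of 25 DNA replication genes, with 2 the other way. Of 72 ribosomal protein genes 60 were higher on each later day and 1 was lower. Each day has 1 library in that run, and the share over all genes was not counted.

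DNA replication genes shared the direction with smaller differences. For both days limma, edgeR and DESeq2 called none of 25, where limma called 0.15% of all genes lower. An unadjusted limma p under 0.05 was found for 12 members, beside 1536 of all 10701 genes. For day 10 limma called none as well, beside 1.01% of all genes called lower. DESeq2 called 1 lower for day 10, beside 63 lower of all 10701 genes. Of the 25, 22 had a negative difference, the median was -0.54 for both days and -0.78 for day 10, and in 11 of 25 (44%) all late libraries were below day 6, beside 16.8% of all genes. PCNA, the sliding clamp, had 453 and 328 RPM on day 8 and 252 and 310.0 RPM on day 10, against 721 and 444 RPM on day 6, with day 8 library 1 above day 6 library 3 (adjusted p = 0.297). MCM2, a subunit of the replicative helicase, had 338 and 328 RPM on day 8 and 383 and 234 RPM on day 10, against 524 and 505 RPM on day 6, without overlap but not past the threshold (log2 -0.70, adjusted p = 0.161). CDT1, a licensing factor, went the other way at 0.48 (adjusted p = 0.40). Of 13 tested inhibitors and D cyclins none was called on both days, beside 0.234% of all genes. On day 10, 1 of the 13 was called lower, beside 1.01% of all genes. RB1, the retinoblastoma gene, was lower on day 10, at 107 and 73.2 RPM, against 261 and 207 RPM on day 6 (log2 -1.39, adjusted p = 0.0279), and CDKN1A, the p21 inhibitor, had a log2 difference of 0.68 (adjusted p = 0.695). In bulk RNA, fewer cells in division and less of these messages per cell cannot be told apart.

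**Figure D3:**
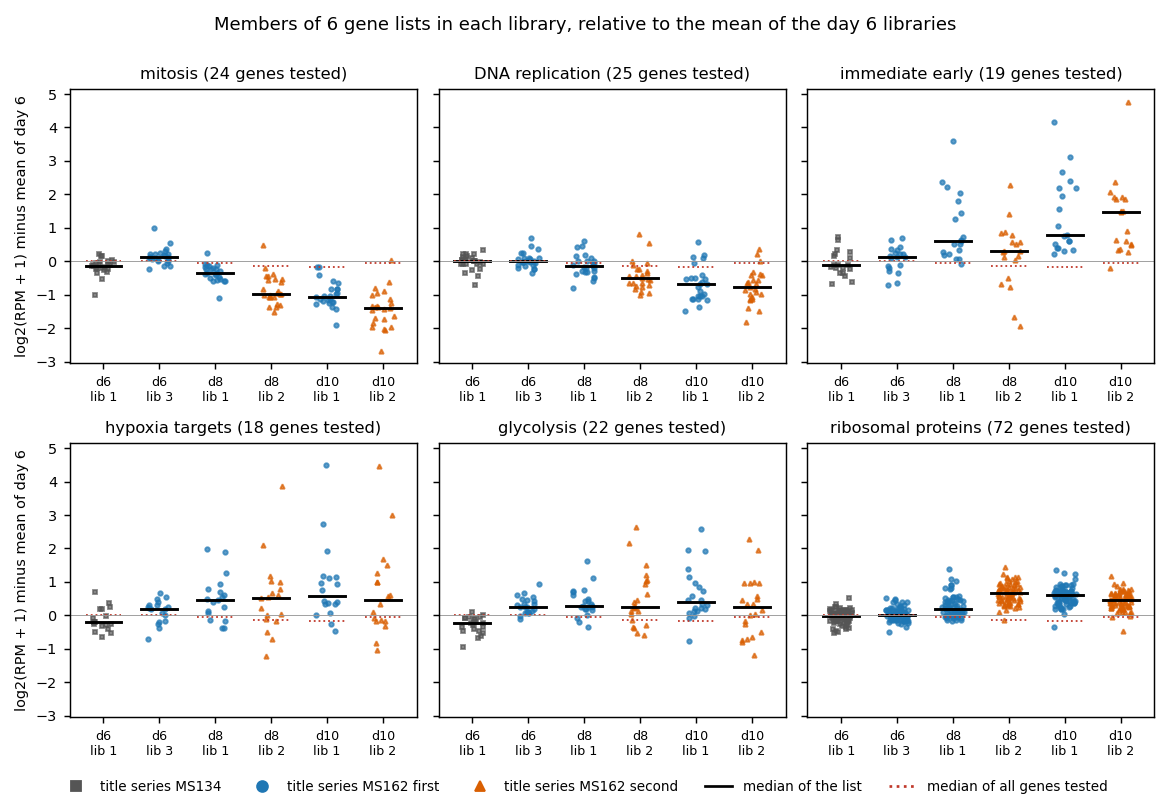
Members of 6 gene lists in each of the 6 libraries, as log2(RPM + 1) minus the mean of the day 6 libraries (vertical axis); black bars are list medians and dotted red bars the median of all genes tested. Mitosis genes sit lowest in the day 10 libraries, ribosomal protein genes sit above the day 6 mean in the late libraries, and immediate early genes spread widely in the late libraries.

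Taken alone, day 8 showed no called gene against day 6 (0%). There were 673 genes with an unadjusted p under 0.05 on limma and a smallest adjusted p of 0.256; edgeR called 0 and DESeq2 7. Day 10 showed 136 calls (1.27%), with 28 higher (0.262%) and 108 lower (1.01%). These became 4 without day 6 library 1, 0 without day 6 library 3 and 8 without day 10 library 2. Median-of-ratios scaling called 20 and 37 (35.1% higher, against 20.6%), and quantile normalization 28 and 49 (36.4%). With other settings the split was near even or most calls were higher: DESeq2 called 105 higher and 63 lower (62.5%), edgeR 14 and 13 (51.9%), limma on the 6 libraries alone 62 and 56 (52.5%), edgeR on them 63 and 15 (80.8%), a pseudocount of 10 gave 75 and 76 (49.7%), and a log2 difference of at least 2 gave 19 and 16 (54.3%). The contrasts of the single days share the day 6 libraries, so their values are given side by side without a comparison: NMU differed from day 6 by -2.15 on day 8 and -3.40 on day 10 (log2), NDRG1 by 2.93 and 4.47, and EZH2 by -1.16 and -1.535. The direct test of day 10 against day 8, which does not use day 6, called no gene (0%), with 539 genes at an unadjusted p under 0.05, a smallest adjusted p of 0.0702, and 0 calls by edgeR and by DESeq2; without day 10 library 1 limma called 13.

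The calls of day 10 include genes outside the lists above, picked here after their values were seen. IFI16, a sensor of foreign DNA, had 40.9 and 28.1 RPM on day 8 and 51.2 and 35.4 RPM on day 10, against 2.50 and 4.22 RPM on day 6 (day 10 log2 3.35, adjusted p = 0.0431). CDX1, a caudal homeobox gene of the posterior embryo, had 26.0 and 11.9 RPM on day 8 and 6.23 and 3.77 RPM on day 10, against 22.1 and 47.0 RPM on day 6 (day 10 log2 -2.50, adjusted p = 0.0279). Day 8 overlapped day 6 and day 10 lay below it. CDX1 was the only member called on day 10 of 17 tested primitive streak and mesoderm genes, beside 1.01% of all genes called lower. T, the brachyury gene, had 773 and 478 RPM on day 8 and 592 and 650.1 RPM on day 10. On day 6 it had 1133 and 816 RPM (both days log2 -0.65, limma adjusted p = 0.662). CD81, a membrane tetraspanin, rose to 477 and 456 RPM on day 10, against 207 and 259 RPM on day 6 (log2 1.01, adjusted p = 0.0215).

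DNMT3B, a de novo DNA methyltransferase gene, had 28.8 and 31.4 RPM on day 8 and 21.5 and 18.9 RPM on day 10, against 42.1 and 73.5 RPM on day 6. The groups did not overlap. It passed on day 10 (log2 -1.42, adjusted p = 0.0424) and not for both days (-1.15, adjusted p = 0.0964). On day 10 DNMT3B was the 1 called of 13 tested genes of DNA methylation and demethylation, beside 1.01% of all genes called lower. None of the 13 was called for both days, beside 0.234% of all genes. DNMT1, which copies methylation at replication, had a log2 difference of -0.79 (adjusted p = 0.194), UHRF1, its recruiting partner, -0.74 (adjusted p = 0.547), and TET1, which oxidizes methylcytosine, -0.05 (adjusted p = 0.955).

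The factors that define the cells did not change past the threshold. TFAP2C had 510 and 365 RPM on day 8 and 379 and 337 RPM on day 10, against 717 and 560.0 RPM on day 6, so that all late libraries were lower (log2 -0.69 ± 0.36, adjusted p = 0.401, limma). SOX17 had 968 and 605 RPM on day 8 and 613 and 830 RPM on day 10, against 831 and 1062 RPM on day 6, with overlap (-0.35 ± 0.47, adjusted p = 0.792). NANOS3, an RNA-binding protein gene of the germ line, had 76.1 and 50.9 RPM on day 8 and 116 and 59.6 RPM on day 10, against 49.97 and 60.3 RPM on day 6 (0.39 ± 0.45, adjusted p = 0.753). PRDM1 averaged 145 ± 30.2 RPM on days 8 and 10 and 129 ± 13.1 RPM on day 6 (0.15 ± 0.37, adjusted p = 0.903), a gene bound to the sort and used to leave out a library. POU5F1 averaged 2017 ± 236 RPM on days 8 and 10 and 2792 ± 837 RPM on day 6 (-0.44 ± 0.40, adjusted p = 0.658). NANOG averaged 530 ± 200 RPM on days 8 and 10, with 827 RPM in day 10 library 2, and 594 ± 68.5 RPM on day 6 (-0.23 ± 0.39, adjusted p = 0.847). SOX2 stayed low at 1.86 to 6.36 RPM on days 8 and 10, against 0.60 and 1.67 RPM on day 6, with all late libraries above both, while embryonic stem cells averaged 355 RPM (0.96 ± 0.57, adjusted p = 0.464).

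**Figure D4:**
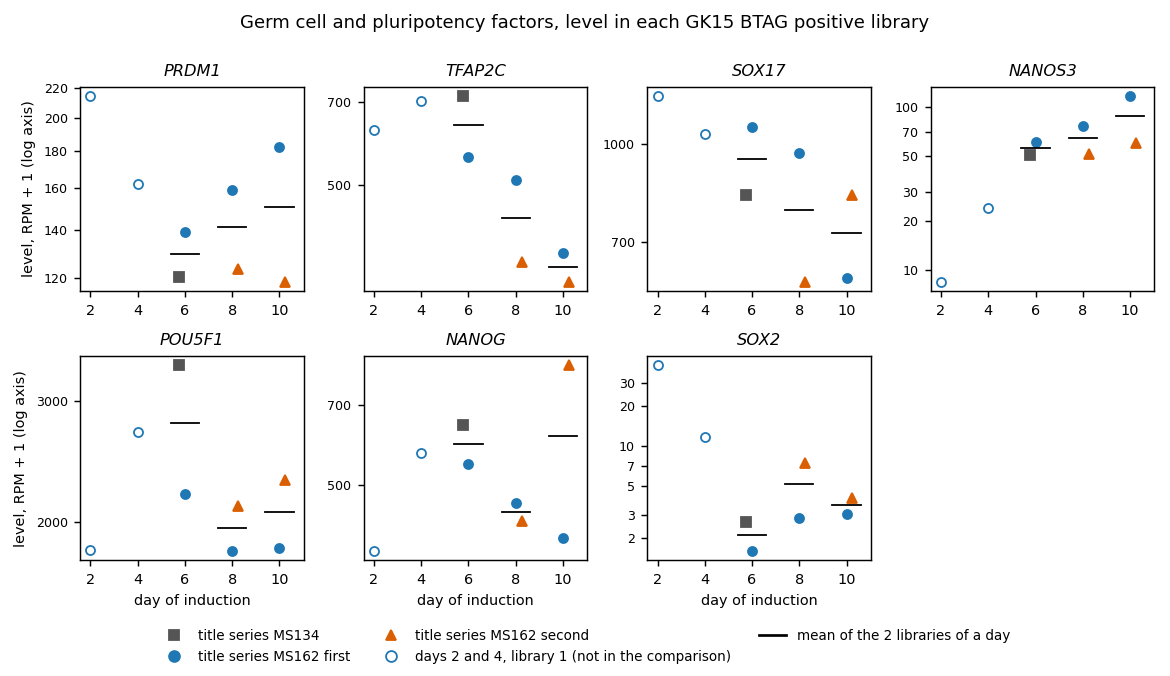
Levels of TFAP2C, SOX17, NANOS3, PRDM1, NANOG, POU5F1 and SOX2 (RPM + 1, logarithmic vertical axes with a range of their own) by day of induction, with symbols for the title series and bars for the mean of each of days 6, 8 and 10. TFAP2C alone of the 7 has all late libraries below both day 6 libraries.

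Of 15 tested germ cell specification genes none was called by limma, edgeR or DESeq2. Over all genes limma called 0.234% for both days, a share at which lists of this size or smaller would most often hold no call. Of the 15, 2 had an unadjusted limma p under 0.05, beside 1536 of all 10701 genes. Among these list members 8 were positive and 7 negative, and the median was 0.06. LIN28A, which blocks the maturation of let-7, came nearest on day 10, at 462 and 260.2 RPM, against 683 and 914 RPM on day 6 (log2 -1.185, adjusted p = 0.0506). Of 8 tested receptors and migration genes none was called; KIT, the receptor of the SCF in the medium, had 263 to 437 RPM in the 6 libraries (log2 0.19, adjusted p = 0.942). Of 26 genes of later germ cells and the piRNA pathway in the table, only 2 reached the filter, PIWIL1 (log2 -1.155, adjusted p = 0.276) and DND1 (0.16), and 8 had no read in any of the 6 libraries. DDX4 lay between 0 and 1.10 RPM and DAZL between 0 and 2.79 RPM, which is 0 to a few reads. Among the 9 tested genes of core pluripotency the median was -0.40, with no call.

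Of 5 genes named in an earlier account of these data as rising over days 2 to 10, TCL1B alone was called after day 6, which is a description of genes already picked for rising. BCL2L14, a relative of BCL2, had 14.9 and 26.8 RPM on day 8 and 20.8 and 56.6 RPM on day 10, against 6.25 and 3.01 RPM on day 6, without overlap and short of the threshold (log2 2.34 ± 0.79, adjusted p = 0.188). DKK4, a WNT antagonist, had -0.08 ± 1.08, KYNU, an enzyme of tryptophan breakdown, 0.24 ± 0.79, and SH2D4B 0.24 ± 0.44.

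In the signalling lists named next, which leave out that of AKT and TCL1, limma called no gene for both days, where 0.234% of all genes were called. BMP targets (16 tested) had a median of -0.135, WNT genes (23) 0.00, and NODAL and activin genes (11) 0.00. FGF and ERK feedback genes (17) had -0.08 and LIF and STAT3 genes (13) 0.33. Of the 13 LIF and STAT3 genes, 12 had a positive difference. In 5 of the 13 (38.5%) all late libraries lay above both day 6 libraries, beside 7.4% of all genes. KLF4, a STAT3 target and naive pluripotency factor, had 65.9 and 24.4 RPM on day 8 and 131 and 33.9 RPM on day 10, against 10.8 and 6.63 RPM on day 6 (log2 2.48, adjusted p = 0.124). On both late days library 1 was higher than library 2. Among immediate early genes FOS and FOSB had the same order of libraries. FOS had 603 and 39.7 RPM on day 8 and 817 and 365 RPM on day 10, against 214 and 77.8 RPM on day 6 (log2 1.17, adjusted p = 0.621), and FOSB had 75.2 and 6.80 RPM on day 8 and 112 and 22.6 RPM on day 10, against 4.58 and 6.03 RPM on day 6. Day 8 library 2 was below both day 6 libraries for FOS and close above them for FOSB. Of 19 tested members 18 were positive (median 0.94), and in 17 both day 10 libraries were above both day 6 libraries, beside 16.3% of all genes. For both days limma and edgeR called none, and DESeq2 called 3 higher, beside 51 higher of all 10701 genes. An unadjusted limma p under 0.05 was found for 7 members, beside 1536 of all 10701 genes. On day 10 limma called 3, where 0.262% of all genes were called higher: ATF3 (log2 3.48, adjusted p = 0.0487), KLF6 (2.02, adjusted p = 0.0423) and JUND (1.73, adjusted p = 0.0279). ATF3, a stress-induced factor, had the opposite order of libraries, with 1.86 and 11.2 RPM on day 8 and 10.4 and 67.1 RPM on day 10, against 2.91 and 0.60 RPM on day 6. The 3 calls became 0 within MS162, without either day 6 library, and without day 10 library 2, 1 without day 10 library 1, and 1 with the title series as a covariate. The list's median for both days was 1.15 within MS162 and 0.97 with that covariate, and on day 10 it was 1.303 within MS162 and 1.065 with the covariate, beside 1.26 in all libraries.

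**Figure D5:**
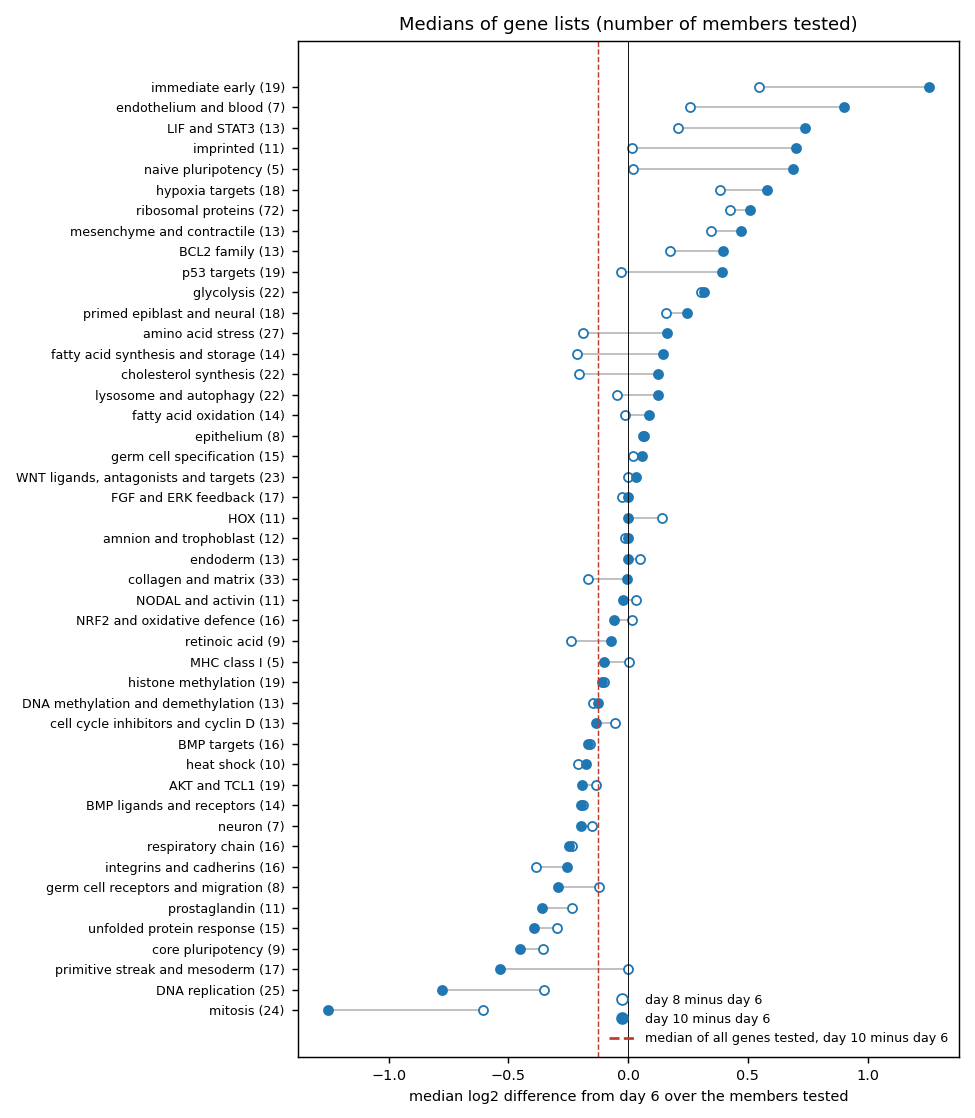
Median log2 difference from day 6 (horizontal axis) over the tested members of each gene list with at least 5, for day 8 (open) and day 10 (filled), with the day 10 median of all genes as a dashed line. Both days use the same day 6 libraries, so their closeness is not a result; on day 10 mitosis and DNA replication lie farthest to the left.

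Ribosomal protein genes, a list chosen after seeing the data, made up 18.8% and 25.2% of all RPM on day 8 and 23.7% and 22.2% on day 10, against 16.3% in each day 6 library. Limma and edgeR called none of 72 tested, where limma called 0.0841% of all genes higher. DESeq2 called 2 higher, beside 51 higher of all 10701 genes. Of the 72, 35 had an unadjusted limma p under 0.05, beside 1536 of all 10701 genes. The difference was positive in 71, and in 44 (61.1%) all late libraries lay above day 6, beside 7.4% of all genes. Their median was 0.49, and 0.18 after quantile normalization, which left 57 positive. This class moved with the groups, and its part in the other results was not tested.

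Markers of other cells held no gene that limma called for both days, where 0.234% of all genes were called. The summed level of 16 mesenchymal and contractile markers was 2127 to 3477 RPM on days 8 and 10 and 1800 to 2021 RPM on day 6, most of it VIM, a filament gene of many cell types. Of the defining markers POSTN was at 0, and DCN had 13.9 and 76.4 RPM on day 8 and 60.2 and 85.97 RPM on day 10, against 15.4 and 9.04 RPM on day 6. The 14 neuronal markers summed to 115 to 389 RPM on days 8 and 10 and 86.2 to 97.04 RPM on day 6, chiefly PRPH, while ELAVL3, ELAVL4 and NEUROD1 were at 0. The 12 endothelial and blood markers summed to 211 to 429 RPM on days 8 and 10 and 162 to 204 RPM on day 6, chiefly ESAM and LMO2, with GATA1, CLDN5, HBE1 and HBZ at 0. The sums of these lists were higher in the late libraries without overlap. Of the 7 neuronal markers tested, though, 3 had a positive and 4 a negative difference (median -0.32). In 1 of the 7 all late libraries lay above both day 6 libraries, beside 7.4% of all genes. This was also so for 1 of 13 tested mesenchymal and contractile markers (7.69%) and 1 of 7 tested endothelial and blood markers. Of these 13, 10 had a positive and 2 a negative difference, and of the 7 endothelial and blood markers 5 and 2. The 21 primitive streak and mesoderm markers were lower without overlap, at 818 to 1109 RPM on days 8 and 10 and 1218 to 1414 RPM on day 6, most of it T, with GSC and MSGN1 at 0. The groups overlapped in the following lists. The 14 epithelial markers summed to 1088 to 1395 RPM on days 8 and 10 and 1012 to 1138 RPM on day 6. The 20 primed epiblast and neural markers summed to 394.5 to 1172 RPM on days 8 and 10 and 402 to 550.1 RPM on day 6, and the highest value was day 10 library 2 with 488 RPM of CD24. That library also had the most HAND1, a mesoderm and amnion gene, at 253 RPM beside 9.29 to 73.7 RPM in the other 5. The 19 amnion and trophoblast markers summed to 463 to 810.0 RPM on days 8 and 10 and 621 to 709 RPM on day 6, with VTCN1, GABRP and CGA at 0. The 16 endoderm markers summed to 214 to 440 RPM on days 8 and 10 and 239 to 271 RPM on day 6, with TTR, APOA2 and CER1 at 0. The part of such cells in the called genes was not tested.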

How the data were processed

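The values were deposited by the authors as RPM per gene, 1 column per library, per the file headers and labels; cutadapt 1.3, TopHat 1.4.1 and Cufflinks 2.2.0 are named, without roles, in the submitters' processing notes. For the monkey genome and its annotation, the version is not given in these sources. Low values were whole multiples of the RPM of 1 read (99.4% to 99.8% within 0.1 steps), and reads were recovered from it for edgeR 4.0.16, which called 8 genes for both days, and DESeq2 1.42.0, which called 76. No column was left unmapped.

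The main test was limma 3.58.1 (R 4.3.3), two-sided, fitted to 24 libraries in 13 groups, with values as log2(RPM + 1) and a prior variance that follows intensity, keeping genes that reached 10 RPM in 2 or more libraries. Fold changes on this scale understate changes of low genes. Limma warned of variances of 0 for some entries. It was also run on simulated counts with implanted differences. That simulation held no effect of title series and no label errors, so it does not bear on those.

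Named were 7 germ cell and pluripotency genes, the 12 largest calls in each direction without overlap, 5 genes of an earlier account, and of each list described up to 4 called or 2 abundant members; other named genes were chosen after their values were seen. Members and the 46 lists were chosen with earlier results of these data known. Near-identical copies may share reads. Alternatives covered pseudocount, filter, scaling, thresholds, prior, tools, sets of libraries, title series and each library left out. Some genes are not reported here by name.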

Additional observations from a re-analysis of the deposited data

How the results depend on the processing

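No paired analysis was possible because the labels give no replicate numbers that match libraries across days; the title series, which groups libraries by title number, was tried as a covariate instead. For days 8 and 10 against day 6 (9 higher, 16 lower), the number higher was 19 with a pseudocount of 10, 14 without a filter, 5 with a mean of at least 20 RPM, 5 by edgeR, 51 by DESeq2, 24 with the 6 libraries alone, 52 with 33 libraries as labelled, 20 by edgeR on the 6 libraries (chosen after seeing the data), and 0 within MS162 or with the title series as a covariate. The number lower was 3 with median-of-ratios scaling, 6 with quantile normalization, 2 at a log2 difference of at least 2, 3 by edgeR, 25 by DESeq2, 5 with the 6 libraries alone, 142 with 33 libraries, 4 by edgeR on the 6 libraries, and 0 within MS162 or with the covariate. Leaving out a library gave 0 to 14 higher and 0 to 34 lower. Day 8 against day 6 (0 called) had 1 with a pseudocount of 10, 6 without a filter, 7 by DESeq2, 3 with the 6 libraries alone, 2 by edgeR on them, and 4 with 33 libraries. Day 10 against day 6 (136 called) had 57 with median-of-ratios scaling, 77 with quantile normalization, 35 at a log2 difference of at least 2, 27 by edgeR, 78 by edgeR on the 6 libraries, 306 with 33 libraries, 24 with the covariate, 0 within MS162, and 0 to 174 with a library left out. Day 10 against day 8 (0 called) had 1 with a pseudocount of 0.1, with quantile normalization, with 33 libraries and without the 6 libraries against their gate, 2 with a pseudocount of 10, 7 without a filter, and 0 to 13 with a library left out. The cause of these shifts was not tested. The 25 called genes kept their direction under each alternative in which they were tested, and none of the 7 germ cell and pluripotency genes was called under any. Precision is limited by 2 libraries a day and by depth: levels under about 3 RPM rest on a few reads.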

Other observations

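In the other medium of the study, aRB27, days 8 and 10 have 1 library each as labelled, and both change group on the alphabetical reading of the column names, so no comparison is made. As labelled, NDRG1 had 15.25 RPM on day 8 and 1.3 RPM on day 10, beside a mean of 3.40 RPM in aRB27 libraries of day 6 that keep their group. VEGFA had 21.0 and 3.91 RPM, beside 10.1 RPM on day 6. NMU had 166 and 93.3 RPM in aRB27, beside 175 RPM on day 6, and EZH2 43.3 and 77.6 RPM, beside 78.1 RPM on day 6.

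Single genes of the imprinted and HOX lists varied between the late GK15 libraries; both were picked after their values were seen. DLK1, an imprinted gene that is expressed from the paternal copy, had 2.79 and 86.7 RPM on day 8 and 70.6 and 90.5 RPM on day 10, against 3.75 and 3.01 RPM on day 6, so that day 8 library 1 alone of the late libraries was at the day 6 level (log2 3.14, limma adjusted p = 0.152). HOXA7, a homeobox gene of the trunk, had 21.4 and 25.5 RPM on day 8 and 29.1 and 39.97 RPM on day 10, against 6.66 and 12.7 RPM on day 6 (log2 1.51, adjusted p = 0.282). Neither passed the threshold.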
